A study of Mus musculus with 2 samples.

Results

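The basement membrane genes followed here through nuclei of the early mouse embryo were Col4a1, Col4a2, Lama1, Lama5, Lamb1, Lamc1, Nid1, Hspg2 and Sparc. They were taken by gene symbol, 9 of the 32285 genes counted. The accessible regions (peaks) with any base within 50 kb of a start of these genes were added, 174 of 229480 peaks. Of these, 158 lay at no promoter (distal peaks), 10 lay at a promoter of 1 of the genes, and 7 at the promoter of another gene, with 1 peak counted in both of the last groups because it lay at the promoter of Col4a1 and near Col4a2.

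The 10x Genomics multiome assay reads RNA and open chromatin from each nucleus. Per the labels' protocols, it was run on nuclei from a pool of E7.0 embryos that TrypLE had dissociated; no genotype, treatment or number of embryos is named. There was 1 library per assay, and all 15341 barcodes were shared by both assays, so no difference here could be set against replicates and no p-value is given. The labels conflicted: title, age and protocol named E7.0 embryos, whereas source, tissue, cell type and strain entries named small intestine for the RNA sample, distal colon for the accessibility sample, and goblet cells of the strain RedMUC298trTg for both. The goblet and intestinal list held 7 markers. Counted as UMIs (unique RNA molecules) and scaled to the same total in every class (CPM, the usual depth-scaled unit), it summed to 10.19 CPM in the parietal endoderm-like nuclei (4 UMIs, with Tff3, Agr2, Clca1 and Lgals4 at 0), 5.29 CPM in visceral endoderm-like and 1.546 CPM in epiblast-like nuclei. The title and age were followed.

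Basement membranes are thin sheets of matrix on which epithelia sit. Laminins are trimers of 1 alpha, 1 beta and 1 gamma chain that form the first polymer at the cell surface, collagen IV trimers of the chains encoded by Col4a1 and Col4a2 give the sheet its strength, and nidogen and perlecan link the networks. In the mouse conceptus the parietal endoderm lines the trophoblast and secretes Reichert's membrane, an unusually thick basement membrane, while the visceral endoderm and the epiblast share a thin one. Mesoderm arises from the epiblast by crossing that membrane at the primitive streak.

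Nuclei were clustered on RNA without the 9 genes and without the other matrix genes described here, and clusters were named from markers that hold no member. After filters, 12796 nuclei remained, with a median of 10471 UMIs and 17350 peak counts. The 5 classes compared were parietal endoderm-like (32 nuclei, 392400 UMIs), visceral endoderm-like (2216), epiblast-like (3569), embryonic mesoderm-like (1433) and extraembryonic mesoderm-like (546). The suffix is left out from here on. All 7 parietal endoderm markers were raised in its single cluster and summed to 3891 CPM, against 733.9 CPM in primitive streak-like nuclei, the next highest class, 308.4 CPM in visceral endoderm and 166.4 CPM in epiblast. The 11 visceral endoderm markers summed to 12790 CPM in visceral endoderm and to 605.1 to 847.6 CPM in the 9 other named classes apart from parietal endoderm, where they summed to 958.2 CPM with Trf at 0. Immune markers (6) were at 0 UMIs in parietal endoderm. They summed to 1.688 CPM in visceral endoderm and 1.598 in epiblast, so a count of 0 says little at the parietal depth. The 6 decidua markers summed to 84.1 CPM in parietal endoderm (3 of 6 at 0) and 2.888 CPM in visceral endoderm. The 7 embryonic mesoderm markers summed to 466.4 CPM in parietal endoderm (Tbx6 and Msgn1 at 0), 171.4 in visceral endoderm and 92.48 in epiblast. The 7 markers of anterior streak, node and definitive endoderm summed to 346.6 CPM (Noto, Shh and Foxj1 at 0), 107.0 and 32.65 in the same order. The part of these lists in the results was not tested. Embryonic mesoderm joined 2 clusters, of 1046 and 387 nuclei, and visceral endoderm 3, of 1111, 916 and 189. A cluster of 140 nuclei (cluster 16) carried visceral markers, part of the parietal list (mainly Pth1r) and raised mesoderm markers. It was left unnamed and is described on its own.

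The sequences before the starts show how these promoters differ from one another. RefSeq (GRCm38.p6) listed promoters for 7 of the 9 genes, from 250 bases before to 50 bases after the start. The stretches shown end before the first transcribed base known to either RefSeq or the deposited files. Capitals mark the motif GGGCGG (the GC box bound by Sp1-family factors) or CCAAT on either strand, read 5' to 3' along the gene. Lama5 and Lamb1 are shown because the accessibility of their promoters differed between classes, Hspg2 for the density of its GC boxes, and Nid1 because its promoter peak was weak (3.51 CPM in parietal endoderm, 1.768 in visceral endoderm and 2.957 in epiblast).
Lama5, chr2:180225905-180226109, minus strand: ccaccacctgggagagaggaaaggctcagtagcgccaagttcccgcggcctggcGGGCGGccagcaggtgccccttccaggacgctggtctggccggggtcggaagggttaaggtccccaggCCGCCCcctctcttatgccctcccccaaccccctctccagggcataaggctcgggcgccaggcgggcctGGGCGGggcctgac
Lamb1, chr12:31265043-31265145, plus strand: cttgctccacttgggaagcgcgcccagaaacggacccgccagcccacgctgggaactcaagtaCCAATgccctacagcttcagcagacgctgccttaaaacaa
Hspg2, chr4:137468553-137468750, plus strand: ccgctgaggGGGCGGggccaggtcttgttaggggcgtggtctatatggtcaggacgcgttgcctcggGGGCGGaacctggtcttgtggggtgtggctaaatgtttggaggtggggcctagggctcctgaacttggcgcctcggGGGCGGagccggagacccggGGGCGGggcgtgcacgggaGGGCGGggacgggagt
Nid1, chr13:13437352-13437550, plus strand: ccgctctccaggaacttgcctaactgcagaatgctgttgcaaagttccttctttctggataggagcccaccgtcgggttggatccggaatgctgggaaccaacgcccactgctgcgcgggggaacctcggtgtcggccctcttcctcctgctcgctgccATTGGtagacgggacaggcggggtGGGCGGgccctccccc

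The Hspg2 stretch held 5 matches, the Lama5 stretch 3, the Nid1 stretch 2 and the Lamb1 stretch 1. In the whole windows, GGGCGG was found in 6 of the 7 genes and CCAAT in 4 of the 7, against 35.7% and 37.4% of 32851 mouse promoters of the same length. TATAAA (13.6% of all promoters), the GATA letters AGATAA (11.2%), the SOX letters ACAATAG (2.37%) and ACAATGG (3.66%) and the AP-1 letters TGANTCA (7.81%) were in none of the 7 windows; both strands were searched. The windows were rich in G and C, from 55.3% in Sparc to 74.0% in Col4a1, with a median of 52.7% over all promoters. Col4a1 (minus strand) and Col4a2 (plus strand) lie head to head: their transcripts run in opposite directions and overlap at their starts, and their promoter windows share 78 bases. The GGGCGG match of Col4a1 lies on the same bases as 1 of those of Col4a2, so 1 site counts for both genes. A single promoter peak, chr8:11312249-11313190 in mm10, covers both starts.

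Collagen IV RNA was highest in parietal endoderm and second highest in visceral endoderm. Col4a1 stood at 4893 CPM in parietal endoderm, 463.6 in visceral endoderm, 98.25 in embryonic mesoderm, 77.35 in extraembryonic mesoderm and 42.52 in epiblast. Col4a2 stood at 4592, 301.5, 65.54, 51.96 and 22.96 CPM in the same order. None of the 95% Poisson intervals of neighbouring levels overlapped among these 5 classes for either gene (Col4a1 in parietal endoderm 4677 to 5117 CPM); these intervals cover counting error only. Over epiblast, Col4a1 was 115.1-fold higher in parietal endoderm (exact 95% interval 107.7 to 123.0) and 10.91-fold higher in visceral endoderm (10.36 to 11.48). For Col4a2 the folds were 200.0 (184.5 to 217.0) and 13.13 (12.26 to 14.08). Haemato-endothelial progenitor-like nuclei came next for both, at 176.6 CPM for Col4a1 and 121.5 CPM for Col4a2.

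Lama1 (alpha), Lamb1 (beta) and Lamc1 (gamma), the chains of laminin-111, were all highest in parietal endoderm. Lama1 RNA stood at 8545 CPM in parietal endoderm, 125.9 in visceral endoderm, 65.81 in embryonic mesoderm, 40.89 in extraembryonic mesoderm and 9.611 in epiblast. Its fold over epiblast was 889.0 (798.6 to 992.1) in parietal endoderm, higher than that of any other of the 9 genes. Lamb1 stood at 3532 CPM in parietal endoderm, 223.6 in visceral endoderm, 110.3 and 111.1 in embryonic and extraembryonic mesoderm, whose intervals overlapped, and 74.24 in epiblast. Lamc1 stood at 4722, 166.3, 48.96, 65.76 and 85.63 CPM in the same order, so that epiblast lay above both mesoderm classes. The folds of parietal endoderm over epiblast were 47.58 (44.59 to 50.75) for Lamb1 and 55.15 (52.08 to 58.39) for Lamc1.

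Lama5, which encodes the alpha chain of laminin-511, differed from the other 8 genes in having its lowest level of these 5 classes in parietal endoderm. It stood at 170.9 CPM in visceral endoderm, 105.0 in epiblast, 40.21 in extraembryonic mesoderm, 26.93 in embryonic mesoderm and 20.39 in parietal endoderm. The parietal level rests on 8 UMIs (8.802 to 40.17 CPM) and overlaps that of embryonic mesoderm. Lama5 was lower than in epiblast in parietal endoderm (0.1942 of its level, 0.08377 to 0.3829), embryonic mesoderm (0.2565, 0.2311 to 0.2841) and extraembryonic mesoderm (0.3829, 0.3344 to 0.4367). Extraembryonic ectoderm-like nuclei (115.8 CPM), anterior streak-, node- and definitive endoderm-like nuclei (106.1), ectoplacental cone- and giant cell-like nuclei (105.1) and primitive streak-like nuclei (98.13) lay near the epiblast level.

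**Figure D1:**
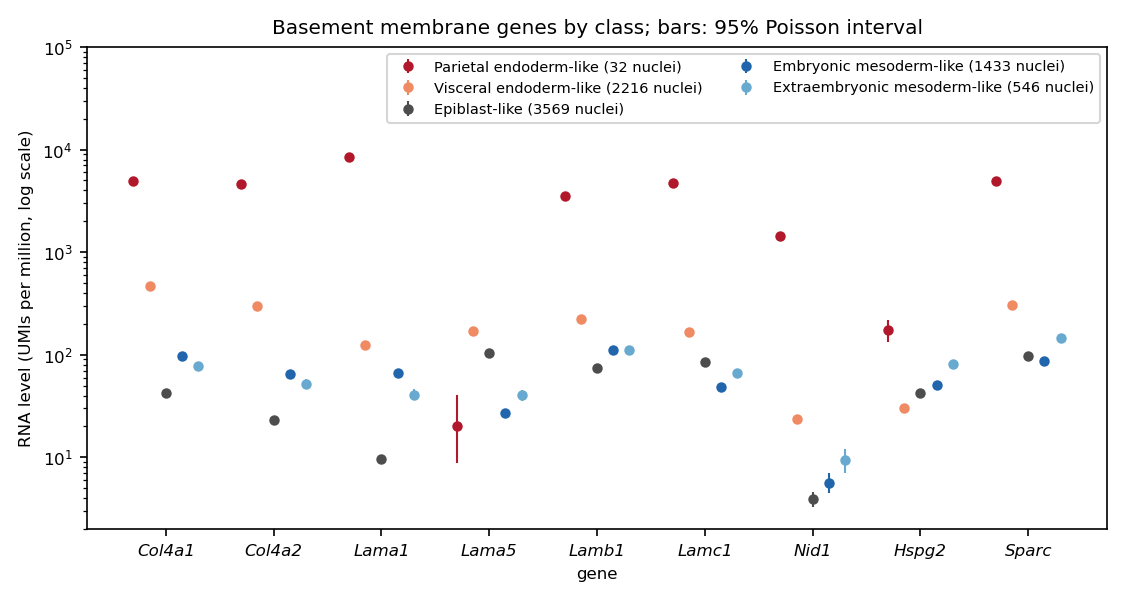
RNA level (CPM of UMIs, log axis) of the 9 genes in 5 classes of nuclei, with 95% Poisson intervals that cover counting error only. Parietal endoderm (red) lies far above the other classes for 7 genes and less far above them for Hspg2 (173.3 CPM). It lies below visceral endoderm and epiblast for Lama5 (20.39 CPM).

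Among the linkers and binding proteins, Nid1 (nidogen-1, which joins laminin to collagen IV) stood at 1437 CPM in parietal endoderm and 23.92, 5.639, 9.37 and 3.917 CPM in visceral endoderm, embryonic mesoderm, extraembryonic mesoderm and epiblast. Extraembryonic ectoderm (76.86 CPM) and the ectoplacental cone and giant cell class (66.99 CPM) came after parietal endoderm for it. Sparc, a collagen-binding glycoprotein long used as a parietal endoderm marker, stood at 4903, 308.5, 86.84, 146.9 and 96.58 CPM in the same order as Nid1. Over epiblast, Nid1 was 367.0-fold higher in parietal endoderm (306.3 to 441.9) and Sparc 50.77-fold (48.03 to 53.65).

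Hspg2 (perlecan, a heparan sulphate proteoglycan) differed least between the classes. It stood at 173.3 CPM (134.6 to 219.7) in parietal endoderm, which overlapped the 142.4 CPM (136.5 to 148.5) of extraembryonic ectoderm. Extraembryonic mesoderm had 80.41 CPM, embryonic mesoderm 50.49 and epiblast 42.16. Visceral endoderm had 30.05 CPM (28.15 to 32.05), the lowest mean of the 11 named classes, with an interval that overlapped that of the anterior streak, node and definitive endoderm class (32.96 CPM, 29.28 to 36.96).

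Counted together, 8 of the 9 genes were 2-fold or more higher in parietal endoderm than in epiblast and 1, Lama5, was lower. Of 14322 genes with at least 50 UMIs in the classes together, 12.7% were that much higher and 29.7% that much lower. The median fold was 55.15 over the 9 genes and 0.842 over all genes tested. Against visceral endoderm the same 8 were higher in parietal endoderm and Lama5 lower (10.9% and 23.3% of all genes). Those folds were 67.86 (64.77 to 71.08) for Lama1, 60.09 (53.75 to 67.15) for Nid1, 28.4 (26.91 to 29.95) for Lamc1 and 5.766 (4.439 to 7.381) for Hspg2. Lama5 stood at 0.1193 (0.05146 to 0.2352) of its visceral level. Over the alternatives these parietal over visceral folds ran from 20.44 to 80.15 for Lama1, 11.18 to 129.1 for Nid1, 7.609 to 42.31 for Lamc1 and 2.019 to 7.989 for Hspg2, and the Lama5 value from 0.0833 to 0.5988, which no longer passes the fold. The Lama5 and Hspg2 calls rested on how the parietal class was drawn: with 20 instead of 30 principal components that class took in 143 nuclei, and Lama5 then stood at 0.7495 and Hspg2 at 1.541 of the epiblast level, past the fold no longer. The other 7 genes kept their calls, but their folds over epiblast also fell by over 1.5 times there and with cluster 16 joined to the class. Over all alternatives they ran from 267.8 to 903.2 for Lama1, 68.3 to 390.0 for Nid1, 67.52 to 203.2 for Col4a2, 43.18 to 116.9 for Col4a1, 16.85 to 51.96 for Sparc, 16.1 to 50.36 for Lamb1 and 14.78 to 56.88 for Lamc1.

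In visceral endoderm 6 of the 9 genes were 2-fold or more higher than in epiblast (15.7% of all genes), namely Col4a1, Col4a2, Lama1, Lamb1, Nid1 and Sparc, and none was 2-fold lower (20.9% of all genes). Lama1 was 13.1-fold higher (11.78 to 14.61), close to Col4a2, whereas Lamc1 stopped short of the threshold at 1.942-fold (1.859 to 2.029). Across the alternative groupings and scalings Lamc1 ran from 1.303- to 2.729-fold and Lama5 from 1.057- to 2.331-fold, so both passed the fold in some of them. In embryonic mesoderm Lama1 was 6.847-fold higher (6.073 to 7.734), Col4a2 2.855-fold (2.605 to 3.129) and Col4a1 2.311-fold (2.153 to 2.48). These were 3 of 9 genes higher (7.17% of all genes) and 1 lower (10.2%), again Lama5. In extraembryonic mesoderm Col4a2 (2.263-fold), Lama1 (4.254-fold) and Nid1 (2.392-fold) were higher and Lama5 lower, 3 and 1 of 9 (8.08% and 12.6%). Under the alternatives Nid1 ran from 1.979- to 2.777-fold there and Hspg2 from 1.747- to 2.045-fold. All these comparisons share the epiblast class.

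Low levels outside the endoderm stood beside a level of visceral endoderm RNA. The visceral marker list was at 4.73 to 6.63% of its visceral level in the 9 named classes other than visceral and parietal endoderm, and at 5.41% in epiblast. Epiblast held 9.17% of the visceral level of Col4a1, 7.61% of Col4a2 and 7.63% of Lama1. It held 16.4% for Nid1, 31.3% for Sparc, 33.2% for Lamb1, 51.5% for Lamc1, 61.4% for Lama5 and 140.0% for Hspg2. The list sum leans on Cubn (5726 CPM in visceral endoderm, 91.6 in epiblast), and single markers varied. Apom (280.3 and 39.68 CPM), Ttr, Rbp4 and Apoa1 kept larger shares in epiblast than Col4a1, Col4a2 and Lama1. Apoa4 lay between Lama1 and Col4a1, and Apob, Afp, Amn, Cubn, Hnf4a and Trf kept smaller shares. The part of visceral RNA in the low levels of Col4a1, Col4a2 and Lama1 was not tested.

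Within the parietal class the high levels were spread over all nuclei. Per 10000 UMIs of a nucleus, Lama1 ranged from 38.2 to 188 over the 32 nuclei with a median of 78.0. Col4a1 ranged from 10.3 to 96.1 (median 44.8), Col4a2 from 12.7 to 83.1 (43.7), Lamc1 from 21.6 to 72.4 (48.4), Lamb1 from 9.52 to 68.8 (35.6), Sparc from 12.7 to 99.0 (45.5) and Nid1 from 3.61 to 31.6 (15.1). Each of these 7 genes had UMIs in all 32 nuclei. Hspg2 had UMIs in 23 of the 32 and Lama5 in 7. The 9 genes together made up 3.34% of a parietal nucleus's UMIs (median, 1.46 to 5.39%), against 0.166% in visceral endoderm and 0.0455% in epiblast.

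**Figure D2:**
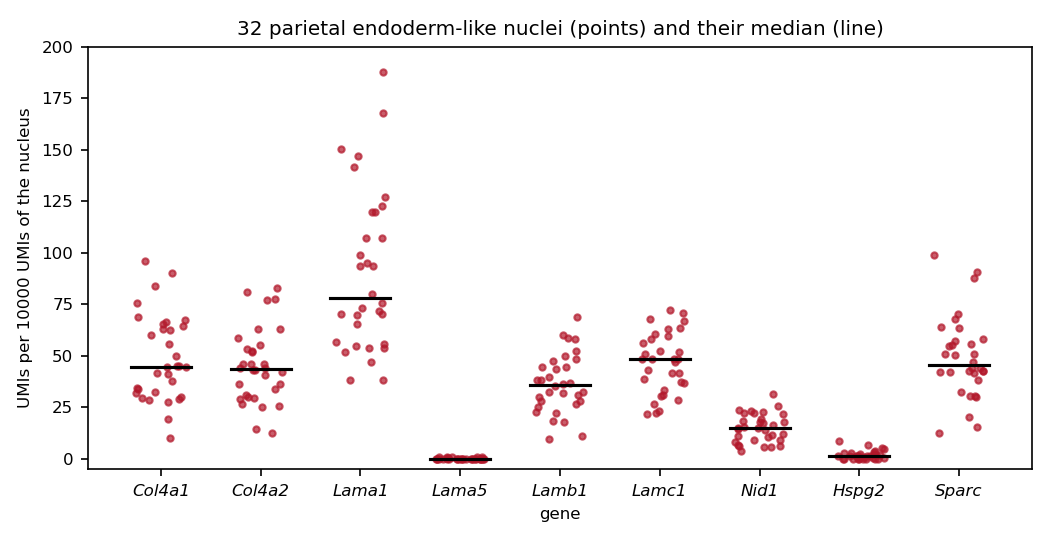
UMIs per 10000 UMIs of each of the 32 parietal endoderm-like nuclei (points) and their median (black line), by gene. Lama1 has the highest median (78.0), and Lama5 has UMIs in 7 nuclei.

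When each nucleus was thinned to 5000 UMIs, so that depth was equal, 7 of the genes were detected in 100% of the 30 parietal nuclei deep enough (exact binomial interval 88.43 to 100%), Hspg2 in 53.33% and Lama5 in 6.667%. In visceral endoderm Col4a1 was detected in 86.07% of nuclei, Col4a2 in 72.85%, Sparc in 69.31%, Lamb1 in 61.38%, Lama5 in 52.27%, Lamc1 in 51.04%, Lama1 in 37.77%, Hspg2 in 13.13% and Nid1 in 10.15%. In epiblast, thinned shares of visceral markers that this class should lack ranged from 2.126% (Hnf4a) to 56.38% (Apoa1), with Ttr at 46.65%, at median depths of 10467 UMIs before thinning in epiblast and 13105 in visceral endoderm. The epiblast shares of the 9 genes ran from 1.976% (Nid1) to 39.55% (Lama5). Apart from Nid1, which lay below it, they fell within the range of such markers. Those markers ran from 87.92 CPM (Trf) to 5726 (Cubn) in visceral endoderm, so this wide range decides nothing for a single gene. Lama5 (170.9 CPM in visceral endoderm) lay above Apoa4 (198.7 CPM, 7.455%) and Apom (280.3 CPM, 18.05%), whereas Col4a2 (301.5 CPM) lay below Apom. Detection alone was not read as expression there. The epiblast shares were 19.28% for Col4a1, 10.51% for Col4a2 and 3.922% for Lama1. Without thinning, Lama5 was detected in 61.64% of epiblast, 76.49% of visceral and 21.88% of parietal nuclei.

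Parietal endoderm was 0.25% of the nuclei but gave a large part of some RNAs. It held 25.7% of all Lama1 UMIs, 15.8% of Nid1, 10.6% of Lamc1 and 10.2% of Col4a2. These shares depend on how the class is drawn. Cluster 16, not counted in it, held 2881 Lama1 UMIs beside the 3353 of parietal endoderm. For the others it held 1953 beside 1802 (Col4a2), 1212 beside 1853 (Lamc1), 84 beside 564 (Nid1) and 198 beside 8 (Lama5). Visceral endoderm, with far more nuclei, held 55.1% of Col4a1, 52.5% of Col4a2 and 37.6% of Sparc UMIs. For Lama5 the shares were 33.7% from visceral endoderm, 26.1% from epiblast and 0.0512% from parietal endoderm.

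The balance of the laminin alpha chains differed between the classes. Lama5 gave 10.92 UMIs per Lama1 UMI in epiblast (exact interval 9.823 to 12.18), 1.357 in visceral endoderm (1.302 to 1.415), 0.9833 in extraembryonic mesoderm (0.8181 to 1.182), 0.4093 in embryonic mesoderm (0.3637 to 0.4598) and 0.002386 in parietal endoderm (0.001029 to 0.004707). Primitive streak (10.63) lay beside epiblast, with overlapping intervals. The embryonic mesoderm value joined 0.2598 in the cluster of 1046 nuclei and 2.211 (1.676 to 2.938) in that of 387, on either side of 1. The visceral value joined 0.7617 in the cluster of 1111 nuclei and 2.296 in that of 916, and it fell below 1 in several other groupings of the nuclei. Cluster 16, which an alternative joined to the parietal class, had 0.06873 (0.05921 to 0.07939), so the parietal value depends on how that class is drawn. These ratios are not corrected for gene length, so they are read between classes and not as amounts of protein.

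**Figure D3:**
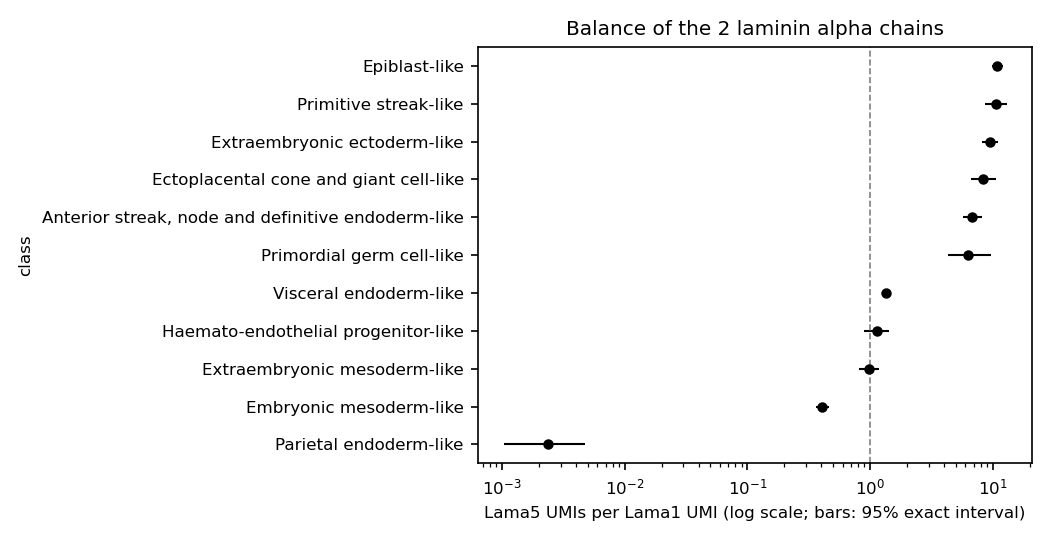
Lama5 UMIs per Lama1 UMI (log axis) in the 11 named classes, with exact 95% intervals for counting error and a dashed line at 1. Epiblast has the highest ratio (10.92) and parietal endoderm the lowest (0.002386). The unnamed cluster 16 (0.06873) is not plotted.

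The other chain pairs moved less. Col4a1 gave 1.852 UMIs per Col4a2 UMI in epiblast (1.706 to 2.011), 1.538 in visceral endoderm (1.498 to 1.578), 1.499 in embryonic mesoderm and 1.065 in parietal endoderm (0.9986 to 1.137), and the 2 genes had the most similar profiles of any pair of members across 19 RNA clusters (Pearson r = 0.993 of log2(CPM + 10)). Lamb1 gave 0.867 UMIs per Lamc1 UMI in epiblast, 0.748 in parietal endoderm and 2.252 (2.064 to 2.459) in embryonic mesoderm. Lama1 gave 1.746 UMIs per Col4a1 UMI in parietal endoderm (1.651 to 1.848) and 0.2716 in visceral endoderm.

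The unnamed cluster 16 lay between the visceral and parietal classes for most of the genes. It held Lama1 at 1419 CPM, Col4a1 at 1245, Sparc at 994.1, Col4a2 at 962.1, Lamb1 at 743.4, Lamc1 at 597.1 and Nid1 at 41.38 CPM. Its visceral marker list summed to 7381 CPM and its parietal list to 499.5 CPM, with Thbd at 0, below the 733.9 CPM of that list in primitive streak. Pth1r made up 591 of the 1014 parietal-list UMIs (291.1 CPM, against 85.55 in visceral endoderm). Plat, Fst, Srgn and Sox7 were also above visceral endoderm, but Tfpi was below it (36.45 against 107.4 CPM) and Fst below epiblast (44.83 against 140.1 CPM). Embryonic mesoderm markers summed to 443.9 CPM in cluster 16 (Msgn1 at 0) and 169.0 CPM in the largest visceral cluster, and extraembryonic mesoderm markers to 118.7 (Tbx4 and Postn at 0) and 28.72 CPM. Their part was not tested. Compared with the largest visceral cluster (1111 nuclei), 7 of the 9 genes were 2-fold or more higher (5.27% of 11618 genes), Lama1 by 9.58-fold, and 0 lower (4.68%). Compared with cluster 16, the parietal cluster was higher for 8 of the 9 (6.67% of 7536 genes), most for Nid1 at 34.73-fold (27.58 to 44.22), and lower for Lama5 (15.6%). The 9 genes made up 0.531% of UMIs in the median nucleus of cluster 16 and 3.01% in the highest, inside the parietal range. These cluster comparisons were chosen after the values were seen.

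Of the visceral clusters, that of 189 nuclei had 0 of the 9 genes 2-fold higher (5.06% of 11584 genes) or lower (10.4%) than that of 1111 nuclei. The cluster of 916 nuclei, whose leading genes include Fzd5 and Sfrp5, exceeded the cluster of 1111 nuclei, led by Cubn and Lrp2, by 3.474-fold for Nid1 (2.917 to 4.155), 2.169-fold for Lama5 (2.046 to 2.3) and 2.05-fold for Lamc1 (1.933 to 2.175), 3 of the 9 genes (9.27% of 12902 genes), and 0 of the 9 were 2-fold lower (5.66%). Lama5 stood at 244.7 CPM in the first and 112.8 CPM in the second. Lama1 went the other way, at 106.6 and 148.2 CPM. Markers of other classes were also higher in the cluster of 916 nuclei: primitive streak markers summed to 434.7 against 102.3 CPM, those of anterior streak, node and definitive endoderm to 184.3 against 42.29 (Noto at 0 in the latter) and epiblast markers to 957.2 against 607.2. Their part was not tested, and this cluster stayed unnamed with a rival limit of 0.5. Between the mesoderm clusters, the one of 387 nuclei held Lama5 at 64.19 CPM against 19.11 CPM in the one of 1046, and Lama1 at 29.04 against 73.54 CPM. Of the 9 genes, 1 (Lama5) was 2-fold higher in the smaller cluster (5.78% of 12073 genes) and 2 (Lama1 and Col4a2) lower (9.71%). The smaller mesoderm cluster had a median of 6711 UMIs and no mesoderm marker among its 10 leading genes, and it too stayed unnamed with a rival limit of 0.5; the part of depth was not tested.

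Other matrix genes were compared with epiblast in the same way, and their counts are read against the shares over all genes: 12.7% higher and 29.7% lower in parietal endoderm, 15.7% and 20.9% in visceral endoderm, 7.17% and 10.2% in embryonic mesoderm, and 8.08% and 12.6% in extraembryonic mesoderm. Of 16 tested genes for collagen modification and secretion, 14 were 2-fold or more higher in parietal endoderm than in epiblast, with a median of 10.5-fold against 0.842-fold over all genes. They included P4ha2, a subunit of prolyl 4-hydroxylase, at 665.1 CPM against 7.112 (93.53-fold, 78.66 to 111.2), and Serpinh1, the collagen chaperone HSP47, at 2181 CPM against 69.19 (31.53-fold, 29.16 to 34.06). Plod2, a lysyl hydroxylase, stood at 1070 CPM against 53.7. P3h3, counted as lower, had 0 UMIs in parietal endoderm and 6.931 CPM in epiblast, whereas a count of 0 there allows up to 3 UMIs, or 7.645 CPM, so its difference was not detectable at this depth.

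In visceral endoderm 6 of 17 of these collagen genes were higher and 2 lower (median 1.82-fold against 0.938-fold over all genes; 3 higher with doublet calls kept), from P3h3 at 0.3043 to P3h2, a prolyl 3-hydroxylase, at 12.25-fold. P3h2 was also highest in embryonic mesoderm (16.52-fold, 2 of 16 higher, median 1.06) and in extraembryonic mesoderm (20.16-fold, 5 of 16 higher and 1 lower, median 1.09). Plod2 was lowest in embryonic mesoderm (0.5559) and P3h3 in extraembryonic mesoderm (0.4916).

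The minor collagen IV chains Col4a5 and Col4a6 were lower than in epiblast in both endoderm classes and higher in extraembryonic mesoderm. In visceral endoderm Col4a5 and Col4a6 were the 2 of 3 tested chains that were lower (Col4a6 1.039 CPM against 18.78 in epiblast), and Col4a4 was at 1.543-fold. Parietal endoderm had 1 UMI of Col4a5 (0.1301 of epiblast, 0.00329 to 0.7272) and 0 of Col4a6. In extraembryonic mesoderm both were higher, Col4a6 by 7.22-fold (6.521 to 7.994) and Col4a5 by 5.02-fold (4.497 to 5.601). In embryonic mesoderm 0 of 3 passed the fold, from Col4a4 at 1.03 to Col4a6 at 1.462.

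Of the other laminin chains, Lama4, another laminin alpha chain, was the highest in parietal endoderm (30.58 CPM, 12 UMIs, 9.419-fold over epiblast, 4.741 to 17.04) and in extraembryonic mesoderm (53.33 CPM, 16.42-fold, 13.31 to 20.36). It was the lowest in visceral endoderm (0.1899), where Lamb2 was highest (2.743-fold) and 1 of 6 chains was higher and 3 lower (15.7% and 20.9% of all genes; median 0.52). In parietal endoderm 2 of 6 chains were higher and 2 lower (12.7% and 29.7% of all genes; median 0.766), the lower count being near the share over all genes. The lowest was Lamb3 with 0 UMIs against 5.875 CPM in epiblast, which the depth could not separate. In embryonic mesoderm 0 of 6 passed the fold (Lama4 the highest at 1.819), and in extraembryonic mesoderm 2 of 6 were higher and 0 lower.

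Of the other basement membrane components, 8 of 15 were higher in visceral endoderm and 4 lower (15.7% and 20.9% of all genes; median 3.23), the higher ones including Egflam (pikachurin) at 19.69-fold (16.98 to 22.96), Nid2 at 4.146-fold and Agrn (agrin) at 3.226-fold, with Smoc2 lowest at 0.07557. In parietal endoderm 5 of 14 were higher and 5 lower (12.7% and 29.7% of all genes; median 1.25), the lower count being near the share over all genes. Tinagl1 was at 45.41-fold (36.2 to 56.68), Nid2 at 1.519-fold, and Fras1 and Frem1 had 0 UMIs, against 54.06 CPM for Fras1 in epiblast. In embryonic mesoderm 2 of 14 were higher and 5 lower (7.17% and 10.2%; median 0.647), from Col18a1 at 0.1673 to Egflam at 12.87-fold. In extraembryonic mesoderm 4 of 14 were higher and 5 lower (8.08% and 12.6%; median 0.893), from Col18a1 at 0.2066 to Fbln2 at 29.53-fold. Directly against visceral endoderm, 1 of 12 was higher in parietal endoderm and 8 lower (10.9% and 23.3%; median 0.348). The genes for collagen modification and secretion went the other way in that comparison, with 10 of 16 higher and 1 lower (median 3.71).

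Of the receptors, 0 of 8 were higher in parietal endoderm and 3 lower (12.7% and 29.7% of all genes; median 0.649 against 0.842), the lower count being near the share over all genes. Itga6, the laminin-binding integrin subunit, was highest there at 198.8 CPM against 127.9 in epiblast (1.554-fold), and Ddr1, a collagen receptor, lowest with 1 UMI (0.08918). In visceral endoderm 0 of 9 were higher and 3 lower (15.7% and 20.9%), from Itga1 at 0.1207 to Itga7 at 1.979. Embryonic mesoderm had 1 of 9 higher, the collagen-binding integrin Itga1 (2.461-fold), and 4 lower (7.17% and 10.2%), with Itga3 at 0.1308. Extraembryonic mesoderm had 0 of 8 higher and 2 lower (8.08% and 12.6%), from Itga3 at 0.2273 to Itgb1 at 1.487.

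Of 9 interstitial matrix genes, 6 could be tested in each mesoderm class. In embryonic mesoderm 3 of 6 were higher (Fn1, Tnc and Vcan; 7.17% of all genes; median 6.22 against 1.02 over all genes), with Fn1, fibronectin, at 1384 CPM against 122.6 in epiblast and Tnc, tenascin C, at 26.83-fold (Col5a1 lowest at 1.326). In extraembryonic mesoderm 4 of 6 were higher (8.08% of all genes; median 5.98), Tnc by 37.24-fold, with Col5a2 lowest at 1.735. In parietal endoderm 0 of 5 were higher and 3 lower (12.7% and 29.7%), with Col5a1 at 1.777-fold on 3 UMIs and Col1a2 at 0 UMIs, and in visceral endoderm Fn1 was the 1 of 5 that was higher (2.414-fold; 15.7% of all genes), while 2 were lower (20.9%), Col5a2 lowest at 0.1767.

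Promoter peaks passed the 2-fold threshold between parietal endoderm and epiblast for 3 of the 9 genes, Lama1, Lamb1 and Lama5. Peak counts, scaled to the same total in every class (CPM of peak counts), at the Lama1 promoter were 75.47 in parietal endoderm, 49.57 in visceral endoderm, 31.32 in embryonic mesoderm, 33.36 in extraembryonic mesoderm and 28.78 in epiblast. The Lamb1 promoter had 47.39, 38.09, 22.00, 19.80 and 22.33 in the same order, and the Lama5 promoter shown above had 17.55, 55.67, 42.19, 44.15 and 61.51. Over epiblast, the parietal class was at 2.623 for Lama1 (1.636 to 3.992), 2.123 for Lamb1 (1.156 to 3.581) and 0.2853 for Lama5 (0.09256 to 0.6669, 10 counts). These were 2 of 9 higher (8.65% of all promoters) and 1 lower (30.1%). The count of 2 fell to 1 with doublet calls kept, with 20 principal components, with counts scaled to promoter peaks or with estimated fragments, and rose to 4 with promoters taken as 2000 bp to each side of a start.

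The shared Col4a1 and Col4a2 promoter peak was no higher in the classes with more of their RNA. It had 22.82 CPM in parietal endoderm, 26.21 in visceral endoderm, 32.06 in embryonic mesoderm and 32.47 in epiblast (Col4a2 0.7026 of epiblast in parietal endoderm, 0.2819 to 1.452). The Nid1 promoter held 2 counts in parietal and 204 in epiblast nuclei, too few in parietal endoderm for a comparison. Between parietal and visceral endoderm 0 of 9 promoters were 2-fold higher (8.66% of all promoters) and 1 lower (20%), that of Lama5 at 0.3153 (0.1022 to 0.738). The count of 0 became 1 under 8 of the alternatives, and the Lama5 call was lost with 20 principal components or with cluster 16 joined to the parietal class. None of the 9 promoters was 2-fold higher or lower in visceral endoderm (5.91% and 20.7% of all promoters), embryonic mesoderm (3.48% and 4.27%) or extraembryonic mesoderm (4.28% and 8.08%).

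**Figure D4:**
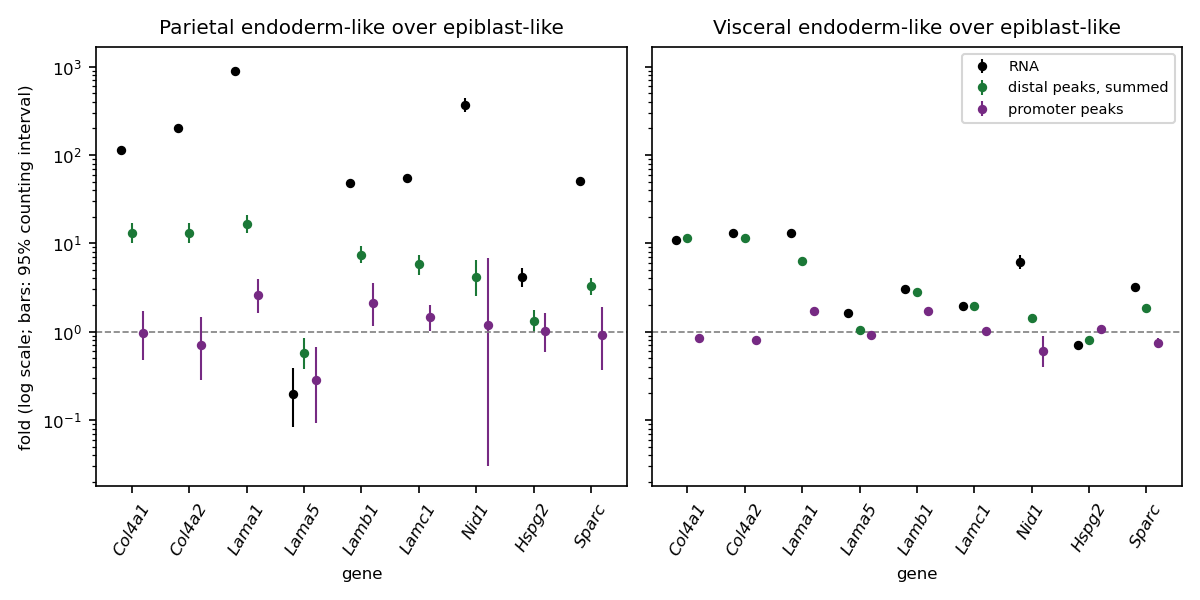
Fold over epiblast-like nuclei (log axis, 95% counting intervals, dashed line at 1) of RNA, of the summed distal peaks and of the promoter peaks of each gene, in parietal (left) and visceral endoderm (right). In parietal endoderm RNA folds exceed the distal folds for the 8 genes that are higher, and the promoter folds lie between 0.2853 and 2.623.

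Of 137 distal peaks with at least 20 estimated fragments in the 2 classes together, 71 (51.8%) were 2-fold or more higher in parietal endoderm than in epiblast and 50 (36.5%) lower. Over all 171692 distal peaks these shares were 17.0% and 68.8%. In visceral endoderm 63 of 158 (39.9%) were higher, against 19.7%, and 22 (13.9%) lower, against 37.4%. Of these peaks 9 of the 137 and 30 of the 158 had under 20 estimated fragments in epiblast and entered through the endoderm class, which favours higher peaks. With the minimum set on epiblast alone, which was chosen after the values were seen, 62 of 128 (48.4%) were higher in parietal endoderm and 50 (39.1%) lower, against 16.2% and 69.5% of 170100 distal peaks. In visceral endoderm 37 of 128 (28.9%) were then higher and 22 (17.2%) lower, against 12.2% and 43.1%. In embryonic mesoderm 18.5% were higher (27 of 146), against 15.3%, and 11.0% lower, against 13.8%. In extraembryonic mesoderm 23.5% were higher (32 of 136), against 17.2%, and 13.2% lower, against 24.4%. As 128 of the peaks reached the minimum in epiblast alone, some of the 146 and of the 136 entered only through the mesoderm class. This too favours higher peaks, and no mesoderm counts with the minimum on epiblast alone are given. Parietal endoderm held 569738 peak counts in all, so a single count there is worth 1.755 CPM and a low peak passes the fold there on few counts. A peak with 0 counts there is called lower, and the median parietal fold over all distal peaks tested was 0. Lower peaks in parietal endoderm, also those of single genes below, are therefore not read as closed. The shares over all distal peaks were not matched for depth.

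Around Lama1, 13 of 15 distal peaks were higher in parietal endoderm, around Lamb1 10 of 15, around Col4a1 and Col4a2 10 of 14, around Lamc1 9 of 16, around Sparc 13 of 26 and around Nid1 7 of 11. The lower peaks numbered 1 around Lama1, 3 around Lamb1, 3 around the collagen IV pair, 7 around Lamc1, 7 around Sparc and 4 around Nid1. Around Hspg2 and Lama5 more peaks were lower than higher, 13 against 7 of 23 and 12 against 2 of 17, where 68.8% of all distal peaks were lower and 17.0% higher. With the minimum on epiblast alone the higher peaks were 7 of 9 around Lama1, 9 of 14 around Lamb1 and 7 of 14 around Lamc1, and the counts of the other genes stayed as given. Summed per gene, the distal folds over epiblast were 16.63 for Lama1 (13.19 to 20.76), 13.16 for the collagen IV pair (10.05 to 16.98), 7.458 for Lamb1 (5.975 to 9.21), 5.765 for Lamc1, 4.156 for Nid1, 3.284 for Sparc, 1.324 for Hspg2 (0.9847 to 1.744) and 0.574 for Lama5 (0.3746 to 0.8419). In visceral endoderm the sums were 11.44-fold for the collagen IV pair, 6.378 for Lama1, 2.811 for Lamb1, 1.935 for Lamc1 and 1.055 for Lama5. They were 1.842 for Sparc, 1.409 for Nid1 and 0.8027 for Hspg2 (0.7628 to 0.8446), so Sparc and Nid1 passed the fold there in RNA only. The collagen IV sum was thus not separable between parietal and visceral endoderm (1.15, 0.8875 to 1.467), whereas the RNA of Col4a1 was 10.55-fold apart (3.96 to 12.97 over the alternatives) and that of Col4a2 15.23-fold (5.141 to 17.8). In embryonic mesoderm the sums over epiblast were 2.555 for the collagen IV pair (2.278 to 2.867) and 2.351 for Lama1 (2.1 to 2.632). Those of the other genes ran from 0.6429 (Lamc1) to 1.318 (Sparc). Extraembryonic mesoderm had 2.407 for the pair (2.05 to 2.817) and 2.047 for Lama1 (1.736 to 2.405), with the others from 0.6028 (Lamc1) to 1.574 (Sparc). Such sums were not counted over all genes.

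The peak with the highest fold at the collagen IV genes lay inside Col4a1, 4.0 kb from its start, at chr8:11308436-11309232 (mm10). It had 82.49 CPM in parietal endoderm, 53.9 in visceral endoderm, 0.9245 in embryonic mesoderm and 0.7974 in epiblast. The folds over epiblast were 103.5 (58.34 to 182.0) and 67.6 (47.08 to 100.7). Another peak, 48064 bases downstream of the Col4a2 start at chr8:11360423-11361315, had 33.35, 34.99, 0.9245 and 0.8698 CPM in these 4 classes; it was chosen after its values were seen. A peak 4704 bases past the Col4a2 start, chosen in the same way, stood apart from these by its 17.64 CPM in embryonic mesoderm, against 3.9 in epiblast.

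**Figure D5:**
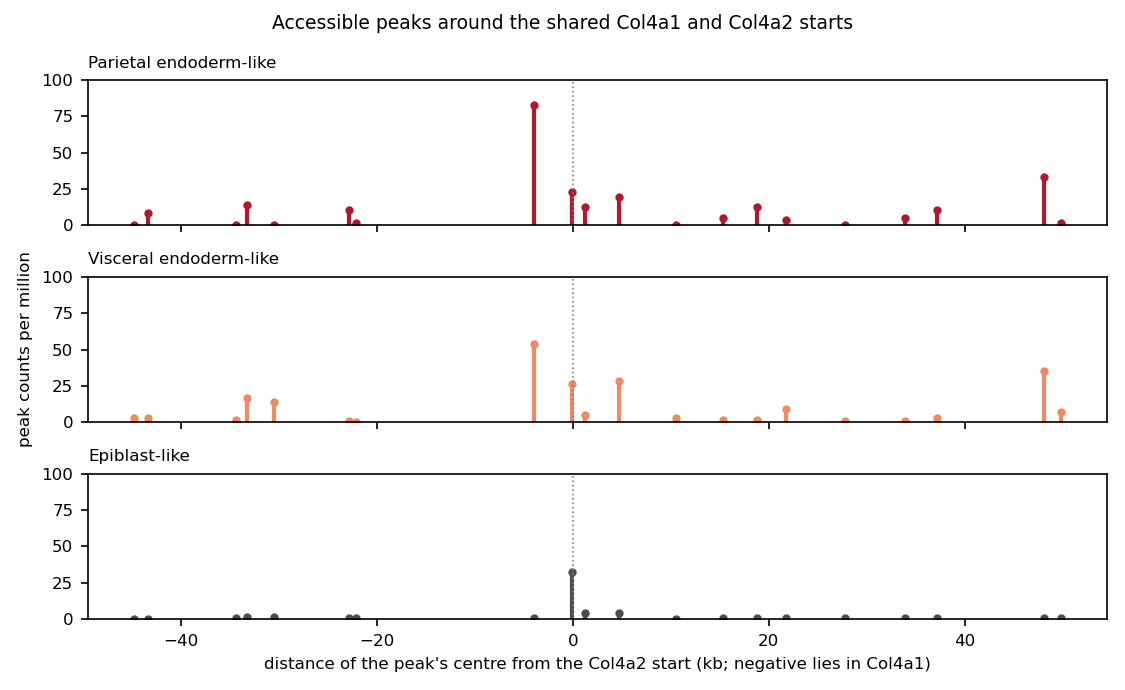
CPM of peak counts of the 20 peaks around the shared Col4a1 and Col4a2 starts (dotted line), by the distance of the peak's centre in kb, in parietal endoderm, visceral endoderm and epiblast. The peak near -4 kb reaches 82.49 and 53.9 CPM in the endoderm classes and 0.7974 in epiblast, whereas the peak at the start differs little.

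At Lama1 the highest parietal fold belonged to a peak 43.0 kb upstream, chr17:67653818-67654603, with 30 counts in parietal nuclei and 6 in epiblast. The visceral one lay 11.7 kb upstream, chr17:67685148-67686023, at 32.94 CPM against 0.4494 in epiblast. At Lamc1 a single peak 26.0 kb upstream, chr1:153358315-153359224, led in both, at 59.68 CPM in parietal endoderm, 19.96 in visceral endoderm and 0.4204 in epiblast. At Lamb1 the leading peaks lay 43.6 kb upstream (chr12:31221244-31222031, 33.35 CPM in parietal endoderm on 19 counts against 0.5074 in epiblast) and 10.0 kb upstream (chr12:31254825-31255621, 8.556 CPM in visceral endoderm against 0.4059). All these peaks of Lama1, Lamc1 and Lamb1 had under 20 estimated fragments in epiblast and reached the minimum only through the endoderm class, so no fold is given.

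Sparc, Nid1 and Hspg2 each had a parietal peak inside the gene. These lay at chr11:55414709-55415566 for Sparc (43.05-fold, 16 counts), chr13:13446527-13447358 for Nid1 (29.59-fold, 11 counts) and chr4:137470025-137470912 for Hspg2 (78.98 CPM against 4.001, 19.74-fold, 12.28 to 30.46). Their visceral peaks lay upstream, at chr11:55433946-55434810 (8.761 CPM against 0.3334 in epiblast), chr13:13397343-13398243 (2.869 against 0.145) and chr4:137462089-137462822 (7.245-fold, 4.796 to 11.25). The first and second of these also reached the minimum only through visceral endoderm, so no fold is given. For Lama5 the highest folds were 7.192 in parietal endoderm on 6 counts (chr2:180219899-180220763) and 10.85 in visceral endoderm (8.159 to 14.68, chr2:180248947-180249863).

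Compared directly between the endoderm classes, 50 of 129 distal peaks (38.8%) were 2-fold or more higher and 51 (39.5%) lower in parietal than in visceral endoderm, against 18.9% and 58.8% over all distal peaks. Parietal endoderm held 569738 peak counts against 39035050 in visceral endoderm, and the median fold over all distal peaks tested was 0. A peak near the fragment minimum is thus called lower at 0 parietal counts and higher at a few. These counts are therefore not read as closed or open peaks, and the shares over all distal peaks were not matched for depth.

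Across 19 RNA clusters of at least 30 nuclei, which share libraries, RNA and summed distal accessibility ran together for most genes. Pearson's r was 0.911 for Col4a1, 0.902 for Col4a2, 0.907 for Lama1, 0.83 for Lamc1, 0.824 for Lamb1 and 0.879 for Sparc. Without the parietal cluster it was 0.952 for Col4a1 and 0.902 for Lama1, but fell to 0.228 for Nid1 (0.791 with it) and 0.173 for Lama5 (0.542 with it). With the promoter peaks r was 0.873 for Lama1, 0.785 for Lamc1, 0.719 for Lamb1, 0.635 for Lama5 and 0.51 for Hspg2, and 0.302 for Col4a1, 0.266 for Sparc, 0.208 for Nid1 and -0.031 for Col4a2. Without the parietal cluster the promoter r was 0.813 for Lama1, 0.698 for Lamb1 and 0.632 for Hspg2, but 0.422 for Lama5 and 0.173 for Lamc1.

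By the same clusters, the RNA profiles nearest to each gene outside the 9 were Tmem263 for Col4a1 (r = 0.967) and Col4a2 (0.966), Gm15418 for Lama1 (0.979), Cemip for Lamb1 (0.962), Lrrc38 for Lamc1 (0.964), Fbxo15 for Nid1 (0.953), St6galnac6 for Hspg2 (0.913) and Snhg18 for Sparc (0.959). Lama5 was nearest to Cmtm8 (0.885) and Cdh1, which encodes E-cadherin (0.857), and its r with the other 8 genes ran from -0.440 (Hspg2) to -0.223. These values are descriptions over 19 clusters, and several rest on the parietal cluster: without it Lama5 had r = 0.524 with Lamc1 and 0.006 with Lama1. The nearest gene then became Abcd3 for Col4a2 (0.966), Golgb1 for Lamb1 (0.946), Rcan2 for Lamc1 (0.92), Mageb16 for Nid1 (0.924) and Ihh for Sparc (0.934). It stayed the same for Col4a1, Lama1, Lama5 and Hspg2, but Cdh1 was then no longer among the 3 genes nearest to Lama5 (Cmtm8, Spint2 and Psen2).

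Grouping the nuclei by accessibility, with all peaks within 50 kb of the 9 genes left out, gave the same counts in parietal endoderm. That class held 26 nuclei, 25 of them among the 32, and again 8 of the 9 genes were higher and Lama5 lower than in epiblast (13.5% and 31.3% of all genes). Against visceral endoderm the parietal class was again higher for 8 and lower for Lama5 (10.4% and 25.9%). In visceral endoderm 7 were higher than in epiblast (15.4%), Lamc1 being the one added, and 0 lower (19.9%). In embryonic mesoderm 3 were higher and 1 lower (6.94% and 10.5%). Both of these classes were drawn differently, however. The visceral one took in 306 nuclei that the RNA classes left unnamed. It held 7362 Lama1 UMIs against 3880 by RNA, and 6795 Lamc1 UMIs against 5124. The mesoderm one took in 225 extraembryonic mesoderm nuclei. The part of these nuclei in the counts was not tested.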

How the data were processed

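Nuclear RNA and chromatin accessibility of 1 pool of embryos were counted in the same nuclei, with Cell Ranger ARC 2.0.0 and the build mm10, per the submitters' processing notes. The authors deposited raw counts: UMIs for each gene and counts for each peak. Of the peak counts, 86.4% were even, as when both ends of a fragment are counted, so intervals for peaks use estimated fragments (count divided by 2, rounded up).

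From 15341 barcodes (182201512 UMIs and 273131304 peak counts), 13896 were kept that had no fewer than 1000 UMIs, 500 genes and 1000 counts in peaks and no more than 20% of UMIs from mitochondrial genes. The caller Scrublet in scanpy marked 1154 doublets (7.52% of barcodes), and 1100 of the remaining barcodes were removed, leaving 12796. Clusters came from Python 3.11.15, scanpy 1.11.5 and leidenalg 0.10.2 (2000 variable genes, 30 principal components, 15 neighbours, resolution 1). A cluster took a name where at least 3 markers of a list were raised 1.5-fold. A rival list was allowed up to 0.75 of the score, a limit raised from 0.5 after the clusters were seen. Of 20 RNA clusters, 3 with 1183 nuclei stayed unnamed, 1 of them by low depth.

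UMIs were summed per class. Folds are ratios of CPM with exact conditional binomial intervals (scipy 1.17.1, 95%), which cover counting error only, and "higher" or "lower" means 2-fold or more with at least 50 UMIs or 20 estimated fragments in both classes together. Promoter peaks overlap the window from 1000 bp before a start to 100 bp past it. With 1 library per assay no test was made. Interval code was tested on simulated data. The members and gene lists were chosen with earlier results of these data known. All 9 members were named, and from each list the genes with the highest and lowest fold per class (1 list gene is not reported here), the likest genes across clusters by log2(CPM + 10), and per member the distal peak with the highest fold; other named genes are examples of their lists, chosen after their values were seen. Peaks outside the 50 kb windows were not analysed here except as background.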

Additional observations from a re-analysis of the deposited data

How the results depend on the processing

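Counts and shares that answer a comparison were recomputed under other filters, clusterings, scalings and windows: 480 of 517 alternatives stayed within 1.5 times the value reported, and 37 did not. Some of the 517 could not differ, so the 480 overstate stability. The best parietal cluster alone is the class itself, and regrouping 1 class leaves comparisons without that class unchanged. Reversal was scored only for single folds past the 2-fold threshold as reported, and 0 reversed. Of all 1395 single folds 202 moved. The cause was not tested for any of them. Most of the 37 were promoter counts of 0 to 4. Promoters higher in parietal endoderm than in epiblast (2 of 9) were 1 with doublet calls kept, 20 principal components, scaling to promoter-peak counts or estimated fragments, and 4 with promoters of 2000 bp to each side. Promoters higher in parietal than in visceral endoderm (0) were 1 under a stricter depth filter, resolution 2, 3000 variable genes, members kept in clustering, accessibility clusters and promoters of 2000 bp. Promoters lower in visceral endoderm than in epiblast (0) were 1 under the stricter filter and 3000 variable genes. With 20 principal components the parietal class grew to 143 nuclei: the members lower and the promoters lower than in epiblast and in visceral endoderm went from 1 to 0 each, 1 promoter was higher in extraembryonic mesoderm, and 24.6% of distal peaks, not 38.8%, were higher than in visceral endoderm. Collagen-modification genes higher in visceral endoderm went from 6 to 3 with doublets kept, and in embryonic mesoderm from 2 to 1 with 3000 variable genes or accessibility clusters. Epiblast and visceral endoderm had more Lama5 than Lama1 UMIs, but only 1 of these 2 classes did with doublets kept, resolution 0.5, 3000 variable genes, 20 principal components or accessibility clusters.

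Alternatives chosen after seeing the data did the same: joining cluster 16 to parietal endoderm gave 1 promoter higher and 0 promoters and 0 members lower than in epiblast, and 0 promoters lower than in visceral endoderm. A rival limit of 0.5, or visceral cluster 2 alone, gave 1 promoter higher in parietal than in visceral endoderm, 1 lower in visceral endoderm than in epiblast, and 1 class with more Lama5 than Lama1. Over all alternatives the parietal fold over epiblast ran from 1.44 to 4.281 for Hspg2 and 0.191 to 0.8099 for Lama5. Extraembryonic mesoderm was not named at resolution 0.5, with 3000 variable genes, members kept, doublets kept or accessibility clusters, so these gave no value for it. The parietal class was a single cluster, so taking its best cluster alone changed nothing. No paired analysis was possible because there was 1 library per assay. Depth limits the parietal class most: its 32 nuclei held 392400 UMIs, and Lama5 rested on 8 of them.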
